A study of Mus musculus with 27 samples.

Results

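The genes described here were 5 subunits of the GABA-A receptor (Gabra3, Gabra5, Gabrb1, Gabrb2 and Gabrg1) and the 2 main neuronal chloride transporters (Slc12a2 and Slc12a5), chosen by name as 7 of the 55416 genes in the read count table. All 7 were present, and all 7 passed the filter on low counts in every comparison. The libraries were poly(A) RNA of whole brains dissected from female mouse fetuses of timed pregnancies, with 3 libraries for each of 3 strains at 3 ages, gestational d12, d15 and d17 (d for day, counted from the plug as day 1). The strains were the inbred AKR/J, the inbred C57BL/6J, and B6.Cg-Cav1tm1Mls/J (Cav1-null), which is congenic with C57BL/6J and carries a germline null allele of the caveolin gene Cav1 in every cell. The change from d12 to d15 was called the early phase and the change from d15 to d17 the late phase, and each strain was set against C57BL/6J on the same day. The phases differ in length and were not tested against each other. AKR/J and C57BL/6J differ at many loci, and the labels do not tie a fetus to a litter.

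GABA-A receptors are chloride channels that open when GABA binds. Each channel is a ring of 5 subunits, usually of α, β and γ types, and the mix of subunits sets where the receptor sits and how it responds. The direction of the current depends on chloride inside the cell. NKCC1, the protein of Slc12a2, carries chloride in with sodium and potassium, while KCC2, the neuronal protein of Slc12a5, carries chloride out with potassium. In immature neurons GABA often depolarizes, and KCC2 is known to come on as neurons mature.

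The libraries held 26363697 to 39759702 reads on genes. Levels are given as CPM, the counts scaled to a common library total with TMM factors (0.675 to 1.14) over the 27 libraries. A call is an adjusted p under 0.05 in edgeR's quasi-likelihood test over all genes. Cav1, the gene removed in the Cav1-null strain, reached at most 0.503 CPM there, while AKR/J held 9.42 to 33.7 CPM of it and C57BL/6J held 10.5 to 41.1 CPM. Neuron markers were above 0 in every group, as were erythroid markers, so this alone does not tell the tissue. The AKR/J d12 libraries stood apart in erythroid markers, with 34130 to 201400 CPM summed over 10 erythroid markers against 1914 to 5440 CPM in the other d12 libraries. Over 8 trophoblast and decidua markers they held 759, 79.6 and 35.6 CPM, against 0.211 to 2.76 CPM in 5 other d12 libraries and 76.7 CPM in C57BL/6J d12 replicate 3. That C57BL/6J library also had less than its fellows of the neuron markers (3759 against 5086 and 6182 CPM) and interneuron markers (191 against 826 and 469 CPM), and the C57BL/6J early values without it are given with the counts over the 7 genes. In other groups, the lowest Cav1-null d12 library held 144 CPM of interneuron markers, against a group median of 594 CPM. The highest AKR/J d15 and C57BL/6J d15 libraries held 1417 and 5598 CPM of connective tissue markers, against medians of 197 and 664 CPM. The part of this in the levels of the 7 genes was not tested.

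Slc12a5 lies on chr2:164802722-164841668, plus strand (GRCm39), and it starts from alternative first exons that join the same second exon. The coding part of the upstream one (chr2:164802803-164802923) is printed because its share of junction reads is given for each library, with the start codon in capitals.
Slc12a5 upstream first exon: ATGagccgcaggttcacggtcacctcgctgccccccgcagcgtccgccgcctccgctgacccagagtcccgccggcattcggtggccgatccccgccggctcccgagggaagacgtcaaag

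The 250 bases before each RefSeq start of Slc12a5 are shown because the starts are used side by side in these brains. The promoters were taken from RefSeq (GRCm38.p6 table) and each matched GRCm39 exactly once, at chr2:164802516-164802765 for promoter 1 and chr2:164809658-164809907 for promoter 2. Capitals mark the motif found. Of all 32851 promoter windows of that length, 12.4% hold the TATA box (TATAAA), 32.7% the GC box (GGGCGG), 2.57% the Egr core (GCGGGGGCG) and 13% the E-box (CAGCTG), each searched on both strands. The GC box and the Egr core can share bases. Promoter 1 held none of these letters and promoter 2 held 1 GC box, on the minus strand. RefSeq promoters were listed for 6 of the 7 genes.
Slc12a5 promoter 1: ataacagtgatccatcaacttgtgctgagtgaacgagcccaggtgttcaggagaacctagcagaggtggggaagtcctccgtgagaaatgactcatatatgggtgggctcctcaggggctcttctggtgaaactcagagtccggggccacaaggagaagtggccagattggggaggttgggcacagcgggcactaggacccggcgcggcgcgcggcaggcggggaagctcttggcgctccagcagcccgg
Slc12a5 promoter 2: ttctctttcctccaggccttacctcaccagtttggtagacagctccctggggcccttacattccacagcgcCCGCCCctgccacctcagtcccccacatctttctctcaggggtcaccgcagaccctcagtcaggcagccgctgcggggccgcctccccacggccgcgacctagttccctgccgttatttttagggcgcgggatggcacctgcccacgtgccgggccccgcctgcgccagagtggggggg

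Slc12a5, the chloride exporter, rose in the early phase in all 3 strains. In AKR/J its level was 24.4, 35.1 and 25.4 CPM on d12, 93.7, 79.8 and 98.6 CPM on d15 and 112, 110 and 118 CPM on d17. In C57BL/6J it was 82.2, 104 and 46.4 CPM on d12, 165, 183 and 194 CPM on d15 and 325, 154 and 164 CPM on d17. In Cav1-null it was 57.1, 53.9 and 66.9 CPM on d12, 98.1, 106 and 84.0 CPM on d15 and 125, 159 and 128 CPM on d17. The d12 and d15 libraries did not overlap in any strain, as for 46.6, 44.3 and 39.6% of all genes tested in AKR/J, C57BL/6J and Cav1-null, and the C57BL/6J d17 replicate 1 stood far above its fellows. From d12 to d15 the log2 fold change was 1.65 (SE 0.18, adjusted p = 0.00136) in AKR/J, 1.19 (SE 0.26, adjusted p = 0.0321) in C57BL/6J and 0.71 (SE 0.13, adjusted p = 0.0052) in Cav1-null. In the late phase, which is shorter, the log2 fold change was 0.36 (SE 0.08, adjusted p = 0.0173) in AKR/J and 0.54 (SE 0.10, adjusted p = 0.0012) in Cav1-null. Whether the rise slowed was not tested. The C57BL/6J early call was lost with the replicate block (adjusted p = 0.0684) and without d12 replicate 1 or any 1 of the d15 libraries (adjusted p from 0.0839 to 0.138). The AKR/J late call was lost without AKR/J d17 replicate 2 (adjusted p = 0.075) or replicate 3 (adjusted p = 0.0779), and with all 27 libraries in the fit the late calls of AKR/J (adjusted p = 0.415) and of Cav1-null (adjusted p = 0.241) and the Cav1-null early call (adjusted p = 0.0519) were lost. In C57BL/6J the late value of 0.28 (SE 0.28, adjusted p = 0.506) did not pass, and without C57BL/6J d17 replicate 1 it was -0.13. That library held 251.5 CPM summed over 8 blood vessel and microglia markers and 8355 CPM over 10 neuron markers, against 77.5 and 132.9 CPM, and 5327 and 6853 CPM, in its fellows. It also held 1209 CPM of connective tissue markers against 99.8 and 191.5 CPM, 313 CPM of oligodendrocyte lineage markers against 152 and 226 CPM, and 1084 CPM of astrocyte markers against 570.4 and 891 CPM, and the part of this in its Slc12a5 level was not tested.

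Slc12a2, the chloride importer (chr18:58011164-58080812, plus strand), stayed within a narrow range. In AKR/J it was 125, 137 and 92.4 CPM on d12, 107, 105 and 112 CPM on d15 and 91.3, 87.2 and 84.3 CPM on d17. In C57BL/6J it was 129, 97.7 and 110 CPM on d12, 110, 100 and 101 CPM on d15 and 102, 89.5 and 80.6 CPM on d17. In Cav1-null it was 89.2, 88.2 and 85.6 CPM on d12, 82.4, 79.6 and 87.9 CPM on d15 and 82.5, 74.3 and 83.9 CPM on d17. Only the AKR/J late phase was called, where the gene fell by 0.26 on the log2 scale (SE 0.07, adjusted p = 0.0282) and the d15 and d17 libraries did not overlap (share of all genes not counted). That call was lost with the replicate block (adjusted p = 0.0887), with all 27 libraries in the fit (adjusted p = 0.167) and in 4 of its 6 fits without a library (adjusted p up to 0.123). In the 5 other phase comparisons the log2 fold change lay between -0.16 and -0.02, with adjusted p of 0.422 to 0.857, and the libraries overlapped. Scaled by library size alone, the AKR/J early value turned to 0.25.

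**Figure D1:**
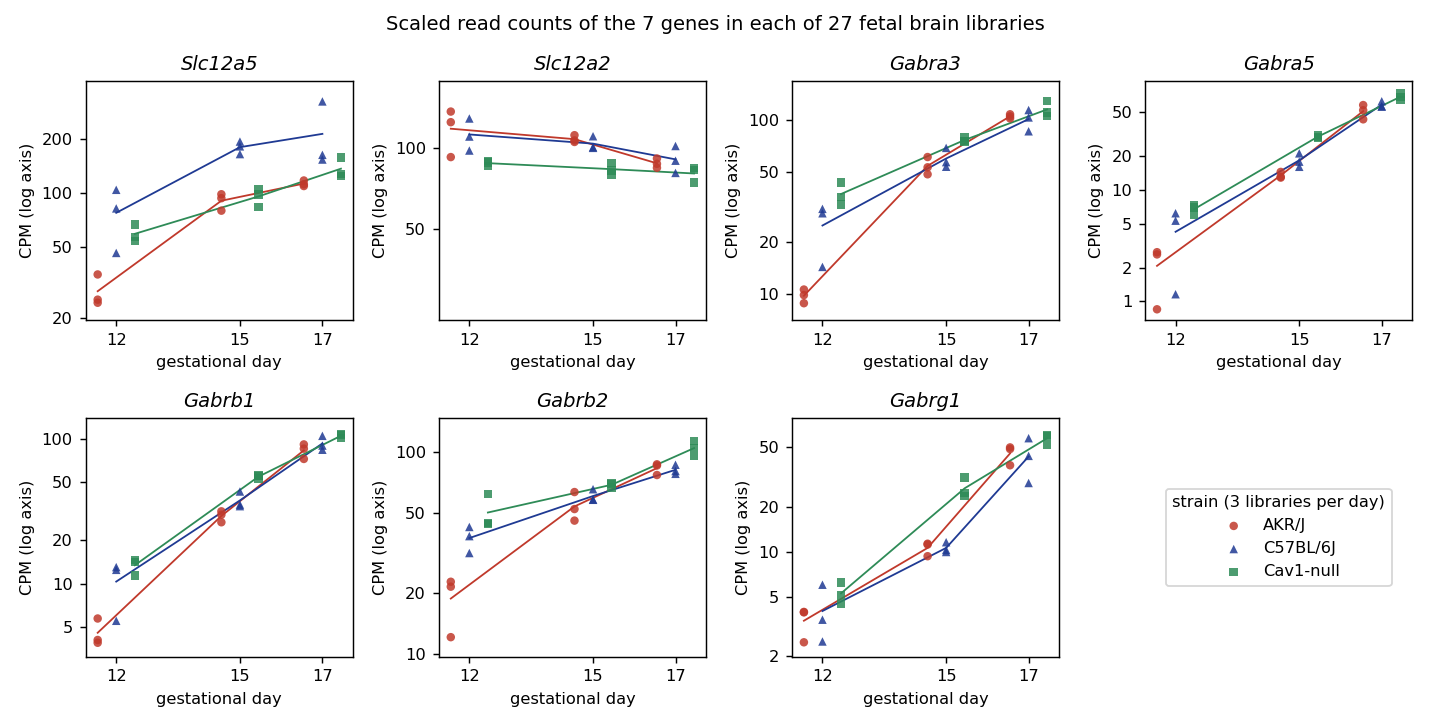
Scaled level (CPM, log axis) of each gene by gestational day, with 1 point for each library, lines through the group means and colours for strains. Slc12a5 and the 5 receptor subunits climb from d12 to d17 in each strain, while Slc12a2 stays between 74.3 and 137 CPM; the C57BL/6J d17 library at 325 CPM stands above the rest in the Slc12a5 panel.

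The read ratio of exporter to importer within a library does not depend on scaling between libraries. Slc12a5 reads divided by Slc12a2 reads gave 0.196, 0.257 and 0.275 in the AKR/J d12 libraries, 0.759, 0.879 and 0.885 on d15 and 1.23, 1.26 and 1.40 on d17. In C57BL/6J the ratio was 0.421, 0.639 and 1.07 on d12, 1.496, 1.83 and 1.93 on d15 and 1.72, 2.03 and 3.20 on d17. In Cav1-null it was 0.611, 0.639 and 0.782 on d12, 0.956, 1.19 and 1.33 on d15 and 1.51, 1.52 and 2.14 on d17. The ratio was higher in each d15 library than in each d12 library of its strain, and d17 overlapped d15 only in C57BL/6J. The mean ratio went from 0.243 ± 0.0415 to 1.29 ± 0.0906 in AKR/J, from 0.709 ± 0.330 to 2.32 ± 0.782 in C57BL/6J and from 0.677 ± 0.0915 to 1.72 ± 0.357 in Cav1-null between d12 and d17 (SD, n = 3). All AKR/J d15 libraries lay under 1 and all C57BL/6J d15 libraries lay above it. The ratio of reads also carries the lengths of both genes, so a value of 1 is not equal numbers of transcripts. These ratios are a description, with no test.

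**Figure D2:**
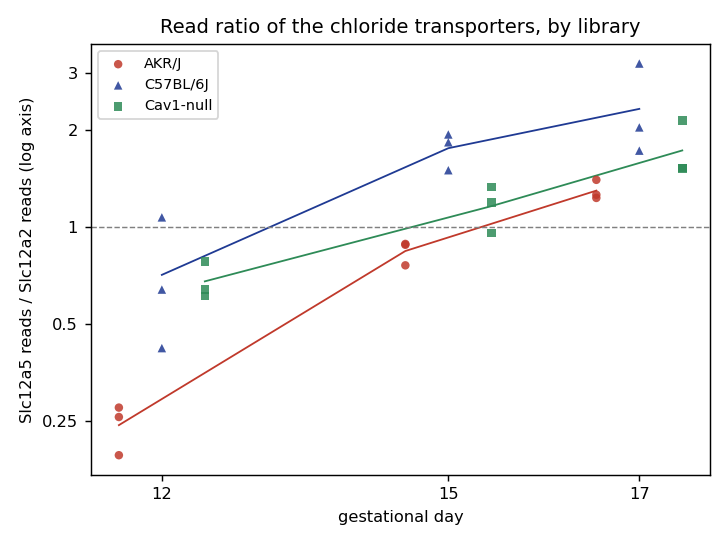
Slc12a5 reads divided by Slc12a2 reads in each of the 27 libraries (log axis) by gestational day, with lines through the group means and a dashed line at 1. The ratio rises with day in all 3 strains, from 0.196 to 0.275 in the AKR/J d12 libraries to 1.72 to 3.20 in the C57BL/6J d17 libraries.

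The splice junction table held 16 junctions of these genes, 7 of them in Slc12a5, 3 in Gabrb2, 2 each in Gabra3, Gabrg1 and Slc12a2 and none in Gabra5 or Gabrb1. All 16 are annotated introns. The authors removed junctions with short overhangs or multi-mapped reads library by library, so a 0 in the table can be a removed junction rather than an unread one. Shares are therefore given over libraries where both junctions of a pair were above 0, a choice made after the values were seen, and they are descriptions with no test.

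Slc12a5 also has a coding exon of 15 bases near its end, at chr2:164838784-164838798, which adds codons without shifting the frame because its length divides evenly into them. It is printed, in capitals with 30 intron bases on each side (chr2:164838754-164838828), because the share of reads that include it is given for each library. Inclusion was read from the junction that leaves this exon for the next one. The junction that enters it (intron chr2:164838439-164838783) was listed at 0 in 24 of the 27 libraries, with 35, 48 and 45 reads in 1 library each of AKR/J d15, AKR/J d17 and C57BL/6J d12, and was not used.
Slc12a5 short exon: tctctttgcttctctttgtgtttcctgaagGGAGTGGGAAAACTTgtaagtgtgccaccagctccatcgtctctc

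Among reads that reach the next exon, the share that came from this short exon was lowest on d12. On d12 it was 64.0 and 76.8% in C57BL/6J replicates 1 and 2 and 86.1 and 82.3% in Cav1-null replicates 1 and 3. On d15 it was 84.1, 88.5 and 90.9% in AKR/J, 88.6 and 94.2% in C57BL/6J replicates 1 and 2 and 91.9, 97.5 and 92.96% in Cav1-null. On d17 it was 89.6, 97.4 and 93.4% in AKR/J, 94.9, 92.0 and 97.8% in C57BL/6J and 97.6, 95.7 and 99.1% in Cav1-null. By day the libraries spanned 64.0 to 86.1% (n = 4), 84.1 to 97.5% (n = 8) and 89.6 to 99.1% (n = 9), so d12 and d17 did not overlap and d15 overlapped both. The 95% Wilson intervals, which cover counting error only, ran from 50.1 to 75.9% for the lowest library and from 95.1 to 99.8% for the highest. In the other 6 libraries the including junction was listed at 0, namely all 3 AKR/J d12 libraries, C57BL/6J d12 replicate 3, C57BL/6J d15 replicate 3 and Cav1-null d12 replicate 2. In C57BL/6J d15 replicate 3 this stood beside 18 skipping reads, while its fellows had 156 and 146 including reads.

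The upstream first exon of Slc12a5 was the less used of the pair. Its share of the reads joining the second exon had a median of 23.8% and ranged from 4.17 to 44.0% over the 23 libraries with both junctions above 0. In Cav1-null on d15 it was 10.5, 4.76 and 4.17%, from 4, 2 and 1 upstream reads, and in C57BL/6J on d15 it was 27.6, 35.5 and 17.4%, from 29, 54 and 21 upstream reads. Those groups did not overlap, but the highest Cav1-null interval (4.17 to 24.1%) reached the lowest C57BL/6J one (11.6 to 25.1%). On d17 the strains overlapped, at 28.6 to 44.0% in AKR/J, 15.4 to 31.6% in C57BL/6J and 18.6 to 35.6% in Cav1-null. Gabra3 also had alternative first exons, with the farther one at 5.08 to 16.9% of junction reads over the 11 libraries with both above 0, all of them on d15 or d17.

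**Figure D3:**
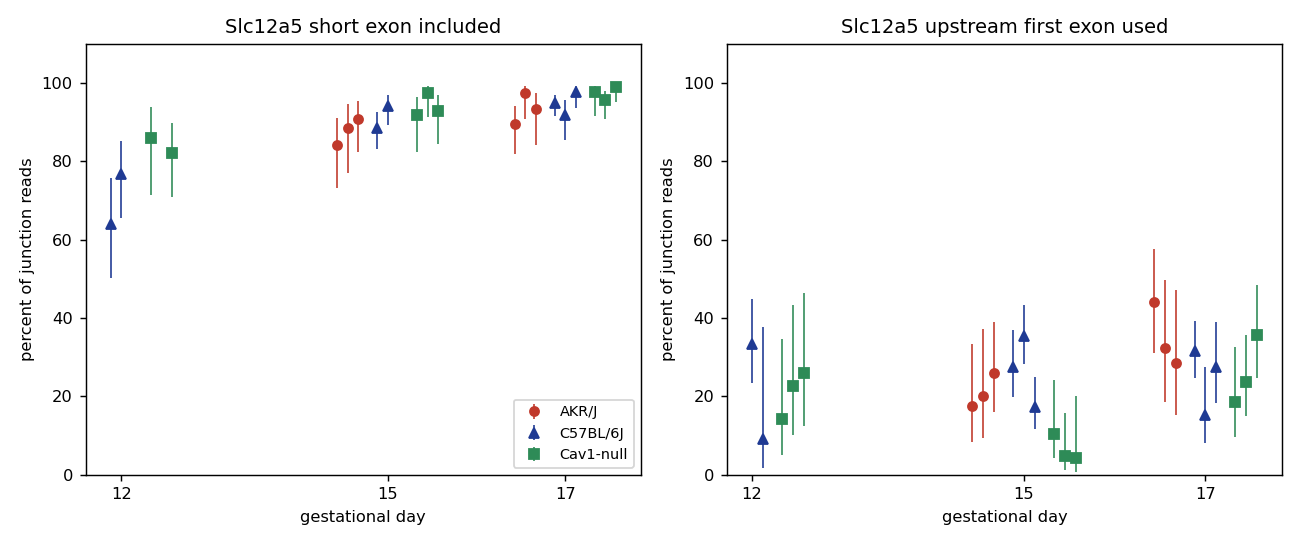
Percent of Slc12a5 junction reads that include the 15-base exon (left) and that come from the upstream first exon (right), by gestational day, with 1 point for each library in which both junctions were above 0 and 95% Wilson intervals as bars. Inclusion runs from 64.0% in a C57BL/6J d12 library to 99.1% in a Cav1-null d17 library, and upstream use is 4.17 to 10.5% in the 3 Cav1-null d15 libraries.

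Gabra5 codes for the α5 subunit, which sits largely outside synapses and is known from the hippocampus (chr7:57055164-57240831, minus strand). In AKR/J its level was 2.77, 0.85 and 2.64 CPM on d12, 14.5, 13.1 and 12.9 CPM on d15 and 43.0, 51.9 and 57.8 CPM on d17. In C57BL/6J it was 6.18, 5.30 and 1.16 CPM on d12, 16.1, 17.9 and 21.3 CPM on d15 and 55.9, 56.5 and 62.5 CPM on d17. In Cav1-null it was 6.01, 7.22 and 6.94 CPM on d12, 29.3, 29.8 and 31.1 CPM on d15 and 73.0, 64.3 and 68.1 CPM on d17. Each day lay wholly above the day before in each strain, and C57BL/6J d12 replicate 3, the library low in neuron markers, was the lowest of its group. From d12 to d15 the libraries did not overlap for 46.6, 44.3 and 39.6% of all genes tested in AKR/J, C57BL/6J and Cav1-null. The share from d15 to d17 was not counted. The log2 fold change was 2.67 (SE 0.44), 2.10 (SE 0.52) and 2.18 (SE 0.13) in the early phase and 1.96 (SE 0.13), 1.70 (SE 0.14) and 1.22 (SE 0.08) in the late phase for AKR/J, C57BL/6J and Cav1-null in turn. All 6 were called, with adjusted p from 9.96e-07 to 0.0411, but the C57BL/6J early call was lost with the replicate block (adjusted p = 0.0734) and without d12 replicate 1 or any 1 of the d15 libraries (adjusted p from 0.0742 to 0.147). Gabra5 overlaps another gene on the opposite strand, and since the strand setting of the counting is not given in the sources used here, reads in shared bases cannot be told apart.

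Gabrg1 codes for the γ1 subunit (chr5:70906506-70999960, minus strand), one of the γ subunits of the receptor. In AKR/J its level was 3.96, 2.48 and 3.94 CPM on d12, 11.2, 11.3 and 9.34 CPM on d15 and 37.9, 48.6 and 49.9 CPM on d17. In C57BL/6J it was 6.02, 3.51 and 2.51 CPM on d12, 9.97, 10.3 and 11.6 CPM on d15 and 28.8, 57.5 and 43.8 CPM on d17. In Cav1-null it was 4.47, 6.25 and 5.09 CPM on d12, 24.8, 23.6 and 31.4 CPM on d15 and 59.5, 60.6 and 52.3 CPM on d17. The days did not overlap in any strain, as from d12 to d15 for 39.6 to 46.6% of all genes tested (no share counted from d15 to d17). The larger part of the rise fell in the late phase in AKR/J (log2 fold change 1.59, SE 0.29, then 2.14, SE 0.15) and C57BL/6J (1.36, SE 0.32, then 2.08, SE 0.26), and in the early phase in Cav1-null (2.36, SE 0.18, then 1.14, SE 0.11). All 6 changes were called, with adjusted p from 1.06e-05 to 0.036. The C57BL/6J early call was lost with the replicate block (adjusted p = 0.0704) and without d12 replicate 2 or any 1 of the d15 libraries (adjusted p from 0.0502 to 0.14), and the late call without d17 replicate 3 (adjusted p = 0.05). The difference between Cav1-null and C57BL/6J in these changes did not pass its own test in either phase, as given with the interactions.

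Gabra3 codes for the α3 subunit (chrX:71476275-71700723, minus strand), an α subunit prominent before birth. In AKR/J its level was 9.86, 10.6 and 8.86 CPM on d12, 53.4, 48.7 and 61.2 CPM on d15 and 102, 105 and 108 CPM on d17. In C57BL/6J it was 29.1, 30.8 and 14.3 CPM on d12, 53.8, 57.2 and 69.0 CPM on d15 and 86.0, 103 and 114 CPM on d17. In Cav1-null it was 32.6, 43.8 and 36.1 CPM on d12, 79.4, 75.3 and 75.4 CPM on d15 and 106, 129 and 110 CPM on d17. The d12 libraries of AKR/J lay under every other library. The days did not overlap within a strain, as from d12 to d15 for 39.6 to 46.6% of all genes tested (no share counted from d15 to d17). The log2 fold change was 2.44 (SE 0.17), 1.25 (SE 0.27) and 1.06 (SE 0.11) in the early phase and 0.99 (SE 0.09), 0.80 (SE 0.16) and 0.61 (SE 0.08) in the late phase for AKR/J, C57BL/6J and Cav1-null in turn, all called. The Cav1-null late call was lost with all 27 libraries in the fit (adjusted p = 0.0808), and the C57BL/6J late call in 4 of 6 fits without a library (adjusted p from 0.0505 to 0.111), namely each d15 library and d17 replicate 3. The C57BL/6J early call was lost with the replicate block (adjusted p = 0.0704) and without d12 replicate 1 or any 1 of the d15 libraries (adjusted p up to 0.138).

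Gabrb1 and Gabrb2 code for the β1 and β2 subunits, to which GABA binds at the border with an α subunit. Gabrb1 (chr5:71815456-72319431, plus strand) was at 4.08, 3.91 and 5.75 CPM in AKR/J, 12.5, 13.01 and 5.54 CPM in C57BL/6J and 11.4, 14.2 and 14.6 CPM in Cav1-null on d12. On d15 it was at 31.6, 26.6 and 29.9 CPM in AKR/J, 34.3, 35.1 and 43.3 CPM in C57BL/6J and 53.0, 55.5 and 55.9 CPM in Cav1-null. On d17 it was at 72.7, 91.5 and 85.6 CPM in AKR/J, 84.1, 105 and 89.8 CPM in C57BL/6J and 108, 106 and 101 CPM in Cav1-null. The days did not overlap within a strain, as from d12 to d15 for 39.6 to 46.6% of all genes tested (no share counted from d15 to d17). The early log2 fold change was 2.65 (SE 0.22), 1.83 (SE 0.31) and 2.05 (SE 0.13) against 1.55 (SE 0.11), 1.35 (SE 0.16) and 0.97 (SE 0.07) in the late phase, all called. The C57BL/6J early call was lost with the replicate block (adjusted p = 0.0672) and in 4 of 6 fits without a library (adjusted p from 0.0535 to 0.113). The start of Gabrb1 overlaps that of Gabra4 on the other strand.

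Gabrb2 (chr11:42310493-42523417, plus strand) rose least of the 5 subunits in both phases in AKR/J and C57BL/6J. On d12 it was at 12.1, 22.8 and 21.5 CPM in AKR/J, 38.3, 42.5 and 31.6 CPM in C57BL/6J and 43.9, 61.7 and 44.5 CPM in Cav1-null. On d15 it was at 52.1, 45.7 and 63.2 CPM in AKR/J, 58.1, 65.3 and 57.9 CPM in C57BL/6J and 69.4, 66.5 and 70.0 CPM in Cav1-null. On d17 it was at 85.5, 86.6 and 76.7 CPM in AKR/J, 86.2, 77.8 and 80.3 CPM in C57BL/6J and 95.1, 113 and 104 CPM in Cav1-null. The days did not overlap within a strain, though the gap between 61.7 and 66.5 CPM in Cav1-null was small. From d12 to d15 this held for 39.6 to 46.6% of all genes tested, and the share from d15 to d17 was not counted. The log2 fold change was 1.48 (SE 0.25), 0.65 (SE 0.13) and 0.48 (SE 0.12) in the early phase and 0.67 (SE 0.11), 0.47 (SE 0.11) and 0.63 (SE 0.07) in the late phase, all called. The C57BL/6J early call was lost with the replicate block (adjusted p = 0.0677) and in 4 of 6 fits without a library (adjusted p from 0.0681 to 0.124). The Cav1-null early call was lost in 4 of 6 fits without a library (adjusted p up to 0.0933) and the C57BL/6J late call in 4 of 6 (adjusted p up to 0.173). The Cav1-null early call was also lost with all 27 libraries in the fit (adjusted p = 0.0628), and the C57BL/6J late call with no filter on low counts (0.0665), all 27 libraries (0.0891) and the replicate block (0.0788, all adjusted p).

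**Figure D4:**
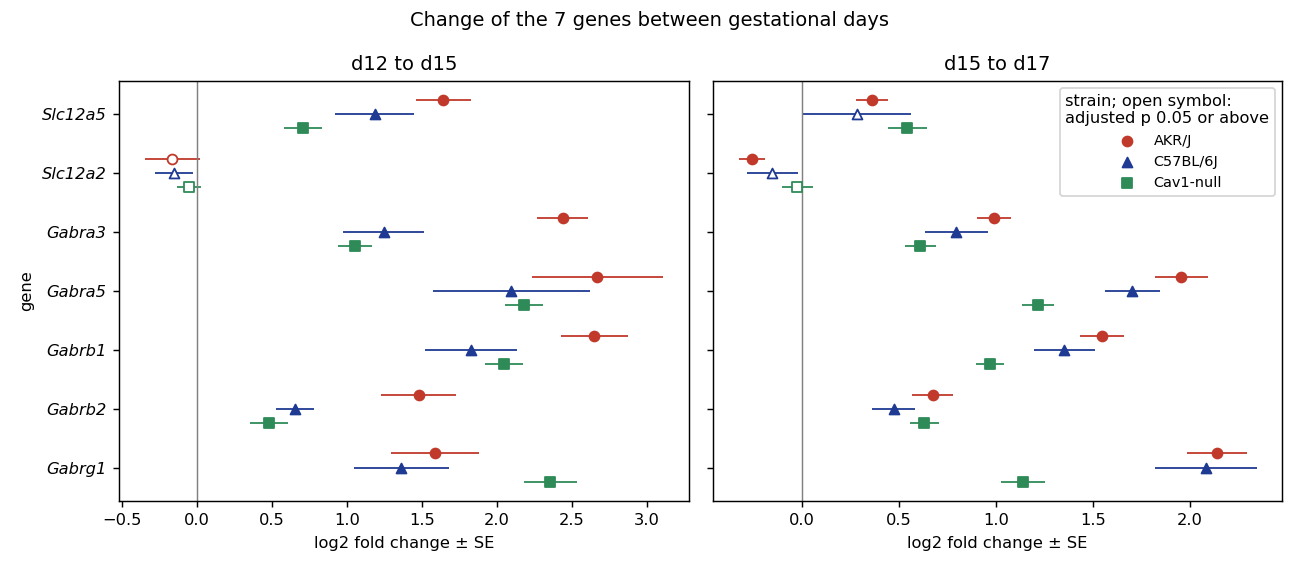
Log2 fold change (with SE bars) of each gene from d12 to d15 (left) and from d15 to d17 (right) in each strain, with filled symbols for calls at an adjusted p under 0.05 and open symbols for the rest. The 5 subunits and Slc12a5 lie to the right of 0 in both phases, the largest value being 2.67 for Gabra5 in AKR/J, while Slc12a2 lies at or left of 0.

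Counted over the 7 genes, 6 rose in the AKR/J early phase, where 28.9% of all genes tested were called and 14.8% were called as higher. The same count of 6 rose in the C57BL/6J early phase (14.9% called, 7.08% higher) and in the Cav1-null early phase (23.4% called, 11.6% higher). Between d15 and d17, 6 rose and 1 fell in AKR/J (22.1% called, 11.6% higher, 10.4% lower), 5 rose in C57BL/6J (13% called, 7.46% higher) and 6 rose in Cav1-null (27.3% called, 14.5% higher). The median log2 fold change over the 7 was 1.65, 1.25 and 1.06 in the early phase and 0.99, 0.80 and 0.63 in the late phase for AKR/J, C57BL/6J and Cav1-null, beside medians of -0.04 to 0.03 over all genes tested. The C57BL/6J early count was 0 without any 1 of its d15 libraries, 1 without d12 replicate 1, 5 without d12 replicate 2, 6 without d12 replicate 3 and 0 with the replicate block, while the log2 fold changes of the 6 genes that rose stayed at 0.55 or more in these fits. Without d12 replicate 3 they were 0.93 for Slc12a5, 1.66 for Gabra5, 1.12 for Gabrg1, 0.97 for Gabra3, 1.53 for Gabrb1 and 0.55 for Gabrb2. Over all genes the number called in C57BL/6J early was 2850, and 0 to 5958 without a library. In C57BL/6J late it was 2594, and 160 to 6990 without a library. Of the 7 genes, the C57BL/6J late count was 2 without C57BL/6J d17 replicate 3 and 3 without any 1 of the d15 libraries. The neuron markers were summed beside these genes, with 2067 to 2493 CPM on d12, 4091 to 6317 CPM on d15 and 5816 to 6098 CPM on d17 in AKR/J, and 8 of the 10 were called as higher in its early phase and 4 of 10 in each other strain. In the late phase 2, 2 and 6 of the 10 were called as higher and 0 as lower, and their median log2 fold change was 0.21, -0.14 and 0.25 for AKR/J, C57BL/6J and Cav1-null. In C57BL/6J the sum was 3759 to 6182 CPM on d12, 7082 to 7835 CPM on d15 and 5327 to 8355 CPM on d17, and in Cav1-null 4479 to 5828, 5634 to 5683 and 5884 to 6387 CPM. Of 10 progenitor markers, 5, 5 and 7 were called as lower and 0, 0 and 1 as higher in the early phase for AKR/J, C57BL/6J and Cav1-null, and 9, 6 and 7 as lower and 1, 1 and 0 as higher in the late phase. Other lists moved in the same comparisons. From d15 to d17 the summed erythroid markers went from 2033 to 3141 CPM up to 3400 to 18210 CPM in AKR/J. In C57BL/6J they went from 807 to 1066 CPM up to 2447 to 2788 CPM. In AKR/J early 9 of 10 erythroid markers, 6 of 7 yolk sac endoderm markers tested and 5 of 5 trophoblast and decidua markers tested were called as lower, and 4 of 9 astrocyte markers as higher. In C57BL/6J early 4 of 7 oligodendrocyte lineage markers were called as higher and 4 of 10 erythroid markers as lower. In Cav1-null late 8 of 9 astrocyte and 6 of 7 oligodendrocyte lineage markers were called as higher. In bulk tissue more neurons and more RNA of a gene in each neuron cannot be told apart, and their part in these rises was not tested.

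Levels of different genes were compared per kilobase of merged exons. On this scale Slc12a2 led the 7 genes in AKR/J on d12, at 9.28 CPM per kb, above Slc12a5 at 3.41 and Gabrb2 at 1.71 CPM per kb. In C57BL/6J Slc12a5 led them on all 3 days, at 9.34, 21.7 and 25.8 CPM per kb, and on d12 it overlapped Slc12a2 at 8.83 CPM per kb. Among the 5 subunits Gabra3 was highest on d15 and d17 in every strain, at 15.2, 14.6 and 16.6 CPM per kb on d17 in AKR/J, C57BL/6J and Cav1-null. Gabra5, Gabrb1 and Gabrg1 were the lowest of these 5 on d12, and their libraries overlapped in AKR/J and in C57BL/6J. Gabrb2 made up 42.5 ± 9.40% of the summed per-kb level of the 5 subunits in AKR/J on d12, against 41.8 ± 8.00% in C57BL/6J on d12 and 37.7 ± 2.04% in Cav1-null on d12 (SD, n = 3). On d17 its share was 20.1 ± 2.05%, 19.5 ± 2.90% and 20.8 ± 1.06%, and the d12 and d17 libraries did not overlap. The share of Gabra5 went the other way, from 5.98 ± 3.38% to 14.9 ± 1.48% in AKR/J, from 5.06 ± 2.49% to 16.9 ± 1.25% in C57BL/6J and from 6.24 ± 0.560% to 16.7 ± 1.80% in Cav1-null. The order between genes depends on the length used, since Gabra5 has 9018 bases of merged exons and 3390 in its canonical transcript.

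The GABA-A genes sit in clusters, and values follow for 5 neighbours of these genes. Beside Gabrb1 and Gabrg1 on chromosome 5, Gabra4 rose in all 6, from 1.57 in Cav1-null early to 0.60 in Cav1-null late. Gabra2 rose in AKR/J and Cav1-null in both phases, and its C57BL/6J values of 0.80 and 0.58 did not pass (adjusted p = 0.0963 and 0.135). Beside Gabra5 on chromosome 7, Gabrg3 rose in all 6, by 2.85 (SE 0.46) in the AKR/J early phase. Of the X-linked neighbours of Gabra3, none was called as higher. Gabrq, the θ subunit, passed in none of the 6, with log2 fold changes of -0.26 to 0.74, and Gabre, the ε subunit, was lower in the early phase of C57BL/6J (-0.99, adjusted p = 0.0209) and Cav1-null (-1.15, adjusted p = 0.0203).

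Of the 14 other GABA-A subunits, 10 or 11 passed the filter, and 6, 5 and 6 were called as higher and 1 each as lower in the early phase for AKR/J, C57BL/6J and Cav1-null. In the late phase 6, 4 and 6 were higher and 0 lower. Beside this list and those of the next 3 paragraphs, 14.8, 7.08 and 11.6% of all genes tested were called as higher early. The late shares were 11.6, 7.46 and 14.5%, in each case for AKR/J, C57BL/6J and Cav1-null. The subunit that fell in AKR/J was Gabrp, the π subunit known mainly from epithelia and reproductive tissue, with a log2 fold change of -4.77 (SE 1.07, adjusted p = 0.0132). On d12 its level was 44.5, 33.2 and 20.1 CPM in AKR/J, 4.10, 0 and 21.7 CPM in C57BL/6J and 0.95, 0.126 and 8.89 CPM in Cav1-null, and on d15 it was 3.28 CPM or less in each library. The trophoblast and decidua markers were at 35.6 CPM or more in each AKR/J d12 library and reached 76.7 CPM in C57BL/6J d12 replicate 3, but were at 2.76 CPM in Cav1-null d12 replicate 3. Other lists varied over the Cav1-null d12 libraries, with 243 to 1208 CPM of connective tissue, 182 to 621 CPM of yolk sac endoderm and 302 to 723 CPM of choroid plexus markers. The part of these markers in the Gabrp levels was not tested. Gabrd, the δ subunit, had the largest rise in C57BL/6J early (4.23, SE 0.86, adjusted p = 0.0285), from a mean of 0.0411 CPM on d12 to 0.873 CPM on d15. It had 0 reads in C57BL/6J d12 replicates 1 and 3 and 4 reads in replicate 2, so the size of that fold depends on few reads.

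Of the 7 other cation-chloride cotransporters, at most 1 was called in each direction in any phase comparison. Slc12a7 (KCC4) was the one called as lower in all 6, with log2 fold changes of -0.93 and -1.42 in AKR/J, -0.62 and -1.48 in C57BL/6J and -1.11 and -0.42 in Cav1-null. Of 13 kinases and partners of the cotransporters, 4, 2 and 6 were called as higher in the early phase and 4, 0 and 4 in the late phase, and 2 as lower, both in Cav1-null early. Neto2, a partner that binds KCC2, had the largest rise of that list in AKR/J late (0.76, SE 0.09) and Cav1-null early (0.74, SE 0.12). Epb41l1, a cytoskeletal protein of neurons, led in C57BL/6J early (1.12, SE 0.28), and Ckb, brain creatine kinase, had the largest fall in Cav1-null early (-0.80, SE 0.19).

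Of 10 genes of GABA synthesis, transport and breakdown, 7 were called as higher in AKR/J early, 1 in C57BL/6J early and 2 in Cav1-null early, and 1, 0 and 5 in the late phase. Slc6a11 (GAT-3), a GABA transporter of astrocytes, had the largest rise in 5 of the 6 comparisons, from 1.17 in AKR/J late to 4.49 in AKR/J early. Gad1, which makes GABA, was called in AKR/J early (1.16, SE 0.23) and Cav1-null early (0.38, SE 0.11) and in no other phase comparison. Gad2, its relative at terminals, was called as higher in AKR/J early (0.97, SE 0.18) and lower in C57BL/6J late (-0.47, SE 0.12). Slc32a1 (VGAT), which loads GABA into vesicles, was called in AKR/J early alone (1.43, SE 0.30). Of 18 genes of receptor scaffold and trafficking, 12, 3 and 7 were higher and 1, 0 and 0 lower in the early phase, and 3, 0 and 3 higher and 0, 0 and 1 lower in the late phase. Slitrk3, an adhesion protein of inhibitory synapses, had the largest early rise in each strain, with 2.49 in AKR/J, 0.99 in C57BL/6J and a value of 0.84 in Cav1-null. The largest late rises were those of Shisa7 in AKR/J (0.60, SE 0.10) and Iqsec3 in Cav1-null (0.56, SE 0.10). Dbi, whose product binds acyl-CoA and the receptor, fell in AKR/J early (-1.51, SE 0.38), and Gabarap, a receptor trafficking protein, fell in Cav1-null late (-0.38, SE 0.07). Gphn (gephyrin), which anchors the receptor at synapses, was called in AKR/J early (1.03, SE 0.19) and C57BL/6J early (0.57, SE 0.14).

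Of 5 GABA-B receptor genes, 4, 2 and 2 rose in the early phase and 2, 1 and 5 in the late phase. Gabbr2 had the largest rise in C57BL/6J early (2.25, SE 0.53), Cav1-null early (1.29, SE 0.17) and AKR/J late (1.04, SE 0.18). The auxiliary subunits Kctd16, in AKR/J early (3.75, SE 0.78) and Cav1-null late (1.18, SE 0.15), and Kctd8, in C57BL/6J late (0.84, SE 0.16), led elsewhere. Of 7 glycine receptor and transporter genes, the other fast chloride channels of the young nervous system among them, 4, 0 and 3 rose early and 3, 3 and 4 late. Glra2, the fetal glycine receptor subunit, rose by 4.06 (SE 0.27) in AKR/J early, and Glra3 had the largest rise in the other 4 comparisons with a call, from 1.57 to 2.46.

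Between strains, Slc12a5 was the gene with the lower values in both other strains than in C57BL/6J. On d12 its log2 fold change in AKR/J was -1.34 (SE 0.30, adjusted p = 0.0171), and on d15 it was -0.95 (SE 0.08, adjusted p = 0.000278). The libraries did not overlap on either day, but the share of all genes without overlap was not counted for these strains. The AKR/J d15 libraries also held less than the C57BL/6J ones of the neuron markers (4091 to 6317 against 7082 to 7835 CPM), interneuron markers (325 to 430 against 569 to 663 CPM), astrocyte markers (391 to 536 against 657 to 759 CPM), oligodendrocyte lineage markers (66.7 to 126 against 134.0 to 171 CPM) and blood vessel and microglia markers (96.8 to 123 against 197.5 to 272 CPM), and more of the erythroid ones (2033 to 3141 against 807 to 1066 CPM). Their part in the d15 difference was not tested. On d17 all AKR/J libraries (110 to 118 CPM) lay under all C57BL/6J libraries (154 to 325 CPM), and the value of -0.90 (SE 0.26) had an adjusted p of 0.159. With DESeq2 the d17 adjusted p was 0.0375, and without C57BL/6J d17 replicate 1 the value was -0.50 (adjusted p = 0.07). In Cav1-null the value was -0.37 on d12 (adjusted p = 0.451), -0.88 (SE 0.09) on d15 and -0.59 on d17 (adjusted p = 0.575), with a call on d15 only. Whether the difference itself changed between days was tested in the interactions.

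On d12, 3 of the 7 genes were lower in AKR/J than in C57BL/6J and none was higher, where 28.6% of all genes tested were called and 14.1% were called as lower. Beside Slc12a5 these were Gabra3 (-1.22, SE 0.31, adjusted p = 0.0235) and Gabrb2 (-0.88, SE 0.27, adjusted p = 0.0405). The count was 0 without AKR/J d12 replicate 1, AKR/J d12 replicate 3, C57BL/6J d12 replicate 1 or C57BL/6J d12 replicate 2. The number called over all genes also moved, from 5529 in the main fit to between 25 and 8009 without a library. The AKR/J d12 libraries had less of the neuron markers (2067 to 2493 CPM against 3759 to 6182 CPM), the astrocyte markers (291 to 344 CPM against 441 to 635.5 CPM) and the blood vessel and microglia markers (64.4 to 91.2 CPM against 124 to 250.1 CPM) and much more of the erythroid ones, all 10 of which were above 0, and the part of this in the differences was not tested. In the same comparison 6 of 10 genes of GABA synthesis, transport and breakdown and 11 of 18 scaffold genes were called as lower, with 2 scaffold genes higher. Slc32a1, the vesicle loader of GABA, was lower (-2.004, SE 0.38, adjusted p = 0.0117).

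On d15, 1 of the 7 was called between AKR/J and C57BL/6J, where 41.1% of all genes tested were called and 22.3% were called as lower. That was Slc12a5, and the RLE and library size scalings gave a count of 2, DESeq2 gave 3, and the fit without C57BL/6J d15 replicate 1 gave 3. On d17, 0 of the 7 were called (0.742% of all genes), 1 of 7 had an unadjusted p under 0.05, and DESeq2 called 1, as did the fit without C57BL/6J d17 replicate 2. On d15 Slc32a1 was lower in AKR/J (-1.27, SE 0.22).

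Between Cav1-null and C57BL/6J, 0 of the 7 were called on d12 and on d17, and all 7 on d15. On d12 edgeR called 0 of 19475 genes, 4309 had an unadjusted p under 0.05 and DESeq2 called 2027, of which 0 were among the 7. Of the 7, 2 had an unadjusted p under 0.05 on d12 and 1 on d17, where 0.0491% of all genes were called, DESeq2 called 0 of the 7, and the fit without C57BL/6J d17 replicate 2 called 1. On d15, 58.6% of all genes tested were called, 26.8% as higher and 31.8% as lower, so a call of each of the 7 stood against a background in which most genes were called. Gabrg1 was higher in Cav1-null by 1.36 (adjusted p = 8.76e-06), Gabra5 by 0.74 (SE 0.11), Gabrb1 by 0.58 (SE 0.09), Gabra3 by 0.39 (SE 0.09) and Gabrb2 by 0.22 (adjusted p = 0.0129). Slc12a5 (-0.88) and Slc12a2 (-0.28, SE 0.07) were lower. The d15 libraries of these groups did not overlap for any of the 7, as for 65.5% of all genes tested. With all 27 libraries in the fit 4 of the 7 remained under the threshold, the losses being Gabra3, Gabra5 and Gabrb2. The Gabrb2 call was also lost without C57BL/6J d15 replicate 1 (adjusted p = 0.0566) or replicate 3 (adjusted p = 0.0617). With library sizes alone the Slc12a2 value was -0.10 (adjusted p = 0.218).

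Other values moved with the d15 difference. The C57BL/6J d15 libraries held 197.5 to 272 CPM summed over 8 blood vessel and microglia markers against 66.9 to 75.8 CPM in Cav1-null, 446 to 5598 CPM of connective tissue markers against 126.5 to 222 CPM, and 7082 to 7835 CPM of neuron markers against 5634 to 5683 CPM. Astrocyte markers stood at 657 to 759 against 309 to 343 CPM, oligodendrocyte lineage markers at 134.0 to 171 against 71.4 to 87.5 CPM, interneuron markers at 569 to 663 against 423 to 435 CPM and progenitor markers at 2007 to 2193 against 1577 to 1675 CPM. Erythroid markers were the other way, at 807 to 1066 CPM in C57BL/6J and 2909 to 3605 CPM in Cav1-null. No marker of these 8 lists was at 0 in either group. Their part in the strain difference was not tested. In the same comparison Slc32a1 was lower in Cav1-null (-1.75, SE 0.16), 8 of 10 genes of GABA synthesis, transport and breakdown were lower, and of the other GABA-A subunits 4 were higher and 1 was lower, namely Gabrq (-0.61, SE 0.16).

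**Figure D5:**
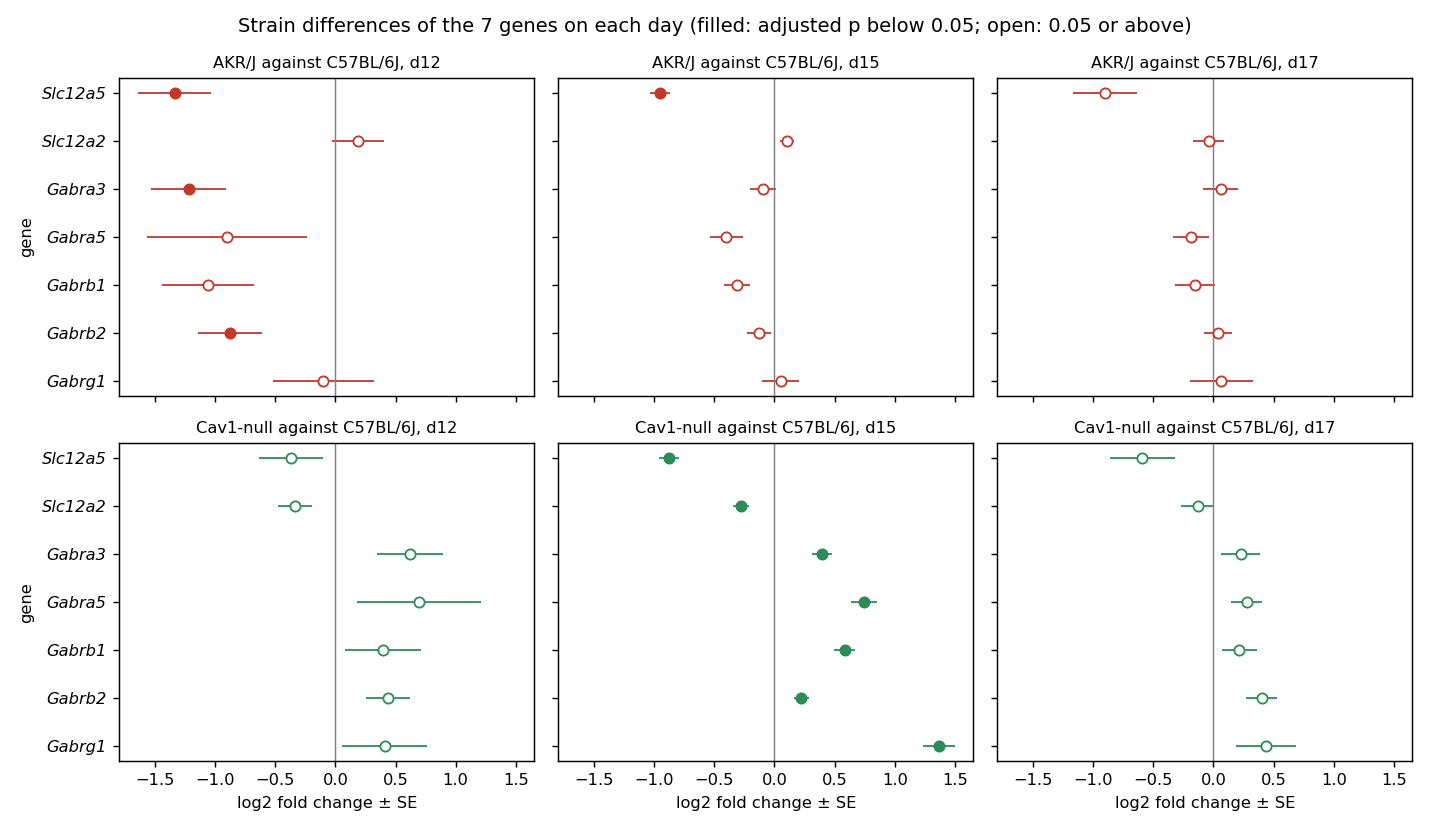
Log2 fold change (with SE bars) of each gene in AKR/J (upper row) and Cav1-null (lower row) against C57BL/6J on d12, d15 and d17, with filled points for an adjusted p under 0.05 and open points for the rest. Slc12a5 lies left of 0 in all 6 panels, and the 5 subunits lie left of 0 or near it in AKR/J on d12 and right of 0 in Cav1-null on d15.

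The size of a phase change was compared between strains by an interaction term. In the early phase 0 of the 7 differed between AKR/J and C57BL/6J (lowest adjusted p = 0.151), where 0.0711% of all genes were called, 2 of the 7 had an unadjusted p under 0.05, and DESeq2 called 1, as did the fit without C57BL/6J d12 replicate 3. In the late phase 0 differed (lowest adjusted p = 0.759), with 0.00468% of all genes called, 0 at an unadjusted p under 0.05 and 0 by DESeq2. For Cav1-null 0 differed in the early phase (lowest adjusted p = 0.266; 0.00472% of all genes; 1 unadjusted; 0 by DESeq2) and 0 in the late phase (lowest adjusted p = 0.108; 0.252% of all genes; 3 unadjusted; 0 by DESeq2). The late count was 3 without C57BL/6J d17 replicate 1. The larger early rises of the subunits in AKR/J are therefore not shown to differ from those in C57BL/6J, nor to be alike.

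The genes whose levels ran most like each of these across the 27 libraries were found by Pearson's r of log2(CPM + 1) among 11471 genes with a mean of at least 3. The libraries share strain and day, so r is a description only. For Slc12a5 they were Elfn2 (r = 0.988), Apba1 (0.986) and Gabbr2 (0.986), a GABA-B receptor subunit. For Gabra5 they were Gabrb1 (0.990), Pcdh11x (0.990) and Bend6 (0.990), and for Gabrb1 they were Unc80 (0.994), Lgi1 (0.992) and Gprin3 (0.991). For Gabra3 they were Enpp5 (0.992), Ppfia2 (0.992) and Rit2 (0.990), and for Gabrb2 Napb (0.976), the unnamed ENSMUSG00000118018 (0.975) and Ppfia2 (0.973). For Gabrg1 they were 2610002M06Rik (0.982), Mpv17l (0.981) and Cdkl2 (0.981). For Slc12a2 the nearest were Kif7 (0.821), a cilium protein, Kifc5b (0.819) and Pole (0.816), a DNA polymerase of dividing cells. Among the 7 themselves the 5 subunits had r of 0.842 to 0.990 with each other and 0.661 to 0.833 with Slc12a5, while Slc12a2 had r of -0.68 to -0.35 with the other 6.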

How the data were processed

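RNA-seq was analysed from 27 fetal brain libraries (3 strains, 3 days, 3 per group). The authors checked reads with FastQC, trimmed them with cutadapt and fastp, mapped them with STAR to GRCm39 and deposited raw read counts per Ensembl gene, and read counts per splice junction after removing junctions with multi-mapped reads, short overhangs or few reads in every library; the counting tool and its strand setting are not given in the sources used here. Counts were tested with edgeR 4.0.16 (filterByExpr, TMM scaling, glmQLFit and glmQLFTest, Benjamini-Hochberg over all genes tested) on the 6 libraries of each comparison, or 12 for an interaction, and SE is the log2 fold change over the root of F. DESeq2 1.42.0 was an alternative, beside RLE and library size scaling, no filter, all 27 libraries in the fit, the replicate block and leaving out each library. The scripts were tested on simulated data. CPM values used TMM factors over all 27 libraries. GENCODE vM39 (GRCm39) gave coordinates and lengths, and 54749 of 55416 genes matched it; promoters came from the RefSeq table of GRCm38.p6. The genes and the pathway and marker lists were chosen with earlier results of these data known. The text names all 7 genes, their GABA-A cluster neighbours, Gad1, Gad2, Slc32a1, Gphn, the called gene of each other pathway list with the largest rise or fall in a phase, and the 3 genes most like each of the 7; values between strains and the Gabrp and Gabrd levels were chosen after they were seen. No 2 replicates agreed within sampling noise (lowest chi-square over degrees of freedom 5.53), and the labels do not say whether fetuses shared a litter, so p-values measure the spread between these samples. Shares of junction reads have 95% Wilson intervals. Some genes that the naming rule covers, the Slc12a2 sequence and the downstream Slc12a5 first exon are not reported here.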

Additional observations from a re-analysis of the deposited data

How the results depend on the processing

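Over 56 log2 fold changes of the 7 genes (every phase change, each called strain difference and each Slc12a5 strain difference; calls gained by other strain differences are in the counts given next), direction and side of the threshold held in 56 with RLE size factors, 55 with DESeq2, 54 each with library sizes alone and with no filter on low counts, 48 with the replicate block and 45 with all 27 libraries in the fit, and in 275 values without a library against 57 weaker, 1 stronger and 3 reversed. The reversed values were those of Slc12a2, at 0.25 in AKR/J early with library sizes alone and at 0.02 and 0.042 in Cav1-null late without d15 replicate 3 and without d17 replicate 2 (range without a library -0.061 to 0.042), and of Slc12a5, at -0.13 in C57BL/6J late without d17 replicate 1 (range -0.129 to 0.454); none of the values they reversed was called. Library sizes alone moved the median of all genes from 0.02 to 0.46 in AKR/J early, to -0.38 and 0.23 in AKR/J against C57BL/6J on d12 and d15, and to 0.21 in Cav1-null against C57BL/6J on d15.

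With all 27 libraries in the fit the number of the 7 genes called fell from 7 to 5 in AKR/J late, from 5 to 4 in C57BL/6J late and from 6 to 4 in Cav1-null early and late. It was 6 in AKR/J late and 4 in C57BL/6J late with the replicate block and 4 in C57BL/6J late with no filter. The number was 0 in C57BL/6J early with the replicate block, 5 in AKR/J against C57BL/6J on d12 with all 27 libraries and 4 there with library sizes alone, with no filter and with DESeq2, 2 on d15 with RLE and with library sizes alone and 3 with DESeq2, and 1 on d17 with no filter, with DESeq2 and with all 27 libraries. It was 4 in Cav1-null against C57BL/6J on d15 with all 27 libraries and 6 with library sizes alone. For the interactions it was 1 in AKR/J early with no filter and with DESeq2 and 2 with all 27 libraries, and 1 in Cav1-null late with no filter. Without 1 library the count ranged from 6 to 6, 0 to 6 and 5 to 6 in the early phase and from 5 to 7, 2 to 5 and 6 to 6 in the late phase (AKR/J, C57BL/6J, Cav1-null), from 0 to 4, 1 to 3 and 0 to 1 in AKR/J against C57BL/6J on d12, d15 and d17, from 0 to 0, 6 to 7 and 0 to 1 in Cav1-null against C57BL/6J, and for the interactions from 0 to 1 and 0 to 0 (AKR/J early and late) and 0 to 0 and 0 to 3 (Cav1-null). The cause was not tested.

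Replicate numbers were not treated as pairs in the main fits. No comparison had a correlation over 0.1 for all 3 numbers, but this rule cannot exclude pairing. In AKR/J against C57BL/6J on d12 the 3 correlations were 0.0709, 0.297 and 0.252. With the replicate block 8 of the 56 values lost their call. Over all genes the block called 6566 against 5529 in AKR/J against C57BL/6J on d12 and 638 against 150 on d17. Of all genes, the block called 0 in C57BL/6J early against 2850, DESeq2 called 4827 there, 4581 against 2594 in C57BL/6J late, 1327 against 150 in AKR/J against C57BL/6J on d17 and 2027 against 0 in Cav1-null against C57BL/6J on d12, and all 27 libraries called 829 against 5530 in Cav1-null late.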
